A study of Homo sapiens with 3 samples.

Results

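MicroRNA precursor genes were examined in RNA-Seq libraries of the established colorectal cancer line DLD1. The genes were chosen by their mean level, at least 1 FPKM over 3 libraries, among those annotated as microRNA with a symbol of the MIR or MIRLET form. FPKM, fragments divided by exon length and by library size, is the level the authors deposited. The rule kept 54 of 1448 microRNA genes and of 60504 genes in all. It used the mean level in the same libraries, so levels are given as a description without a test.

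There were 3 libraries. One came from wild-type DLD1 cells, here DLD1 control cells, and 1 from each of 2 clones of BEX2-/- DLD1 cells, here clone 1 and clone 2, in which CRISPR/Cas9 had deleted bases of BEX2. All 3 carried the DLD1 background and no treatment is given in the labels. Each BEX2-/- library came from a single clone, so a difference shared by the clones rests on 2 libraries, and the control had no replicate. BEX2 (ENSG00000133134), the targeted gene, was listed at 0 FPKM in the control and in both clones, so the knockout labels could not be checked on its RNA level.

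MicroRNAs are short RNAs that guide Argonaute proteins to target messages, mainly through the seed near their 5′ end. Their genes are transcribed as long primary transcripts, often within introns of other genes. The nuclear enzyme DROSHA with its partner DGCR8 cuts out a hairpin, XPO5 exports it, and DICER1 trims it to the mature form. Some hairpins, called mirtrons, are released by splicing instead. The TruSeq kit used here makes libraries of long RNA. The values therefore count reads placed on the hairpin locus, from primary transcripts, unspliced introns or overlapping messages, and they are not levels of mature microRNA.

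RefSeq (GRCh38.p14) gave mature sequences for 47 of the 54 genes, 78 different sequences with 75 different seeds, of which 5 seeds were shared between genes. Shown first are the sequences of the MIR106B, MIR93 and MIR25 cluster in an intron of MCM7, on the minus strand of chromosome 7, because the shares of its hairpins differed between libraries. Bases 2 to 8, the seed, are in capitals. MIR93 and MIR106B share a seed that MIR25 does not have.
hsa-miR-106b-5p: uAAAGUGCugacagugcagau
hsa-miR-93-5p: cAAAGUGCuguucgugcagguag
hsa-miR-25-3p: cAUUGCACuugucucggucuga

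The MIR200B, MIR200A and MIR429 cluster on the plus strand of chromosome 1 is shown because the share of MIR429 in it was nearly the same in all libraries. The family is known for holding epithelial cells in their epithelial state by repressing ZEB1 and ZEB2. MIR200B and MIR429 share a seed, from which that of MIR200A differs by U4C, counted from 1 at the 5′ end of hsa-miR-200b-3p.
hsa-miR-200b-3p: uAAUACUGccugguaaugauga
hsa-miR-429: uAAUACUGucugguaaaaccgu
hsa-miR-200a-3p: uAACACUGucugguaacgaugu

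The next sequences belong to genes that were at least 2-fold from the control in the same direction in both clones. The first 4 were higher, hsa-miR-616-5p was lower, and hsa-miR-6859-5p comes from identical gene copies that went both ways.
hsa-miR-4258: cCCCGCCAccgccuugg
hsa-miR-4482-5p: aACCCAGUgggcuauggaaaug
hsa-miR-559: uAAAGUAAauaugcaccaaaa
hsa-miR-4786-5p: uGAGACCAggacuggaugcacc
hsa-miR-616-5p: aCUCAAAAcccuucagugacuu
hsa-miR-6859-5p: gAGAGGAAcaugggcucaggaca

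The hairpins were short, 53 to 110 nt with a median of 82.0 nt, so each read weighed heavily. In most genes the FPKM values were whole multiples of a step, which is the value of 1 read. The step for the 54 genes lay between 0.190 and 0.398 FPKM in the control, 0.253 and 0.530 FPKM in clone 1, and 0.189 and 0.395 FPKM in clone 2. Reads were recovered by dividing by the step, at the annotated length for 49 genes. For MIR331, MIR27B, MIR200B, MIR200A and MIRLET7D the values were whole only at a longer length, chosen after the values were seen. A level of 1 FPKM in a hairpin thus stood for only a few reads.

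Recovered depth was 47458851 reads in the control, 35593989 in clone 1 and 47722374 in clone 2. The colorectal epithelial markers were above 0 FPKM for 10 of 10 genes, and summed to 1621 FPKM in the control, 1835 FPKM in clone 1 and 1855 FPKM in clone 2. Leukocyte markers summed to at most 0.0513 FPKM, endothelial markers to at most 0.0784 FPKM and fibroblast markers to at most 0.0875 FPKM in any library. Of the epithelial markers, KRT20, VIL1 and LGALS4, genes of differentiated enterocytes, were past 2-fold in both clones as ratios of FPKM + 1, above the control in clone 1 and below it in clone 2. KRT20 was at 18.9 FPKM in the control, 117 FPKM in clone 1 and 0.931 FPKM in clone 2. The clones therefore differed in differentiation genes as well as in the hairpins below, and the part of those genes in the results was not tested. In bulk RNA, fewer cells of a type and less RNA per cell cannot be told apart.

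Reads were few and unevenly spread over the hairpins. The 54 genes held 1237 reads in the control, 1103 in clone 1 and 1207 in clone 2. Summed over the 3 libraries, a gene had between 9 and 411 reads, with a median of 30. There were 11 genes with over 100 reads and 26 with under 30. The 10 genes with most reads over the 3 libraries held 59.1% of the member reads in the control, 62.3% in clone 1 and 56.5% in clone 2.

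**Figure D1:**
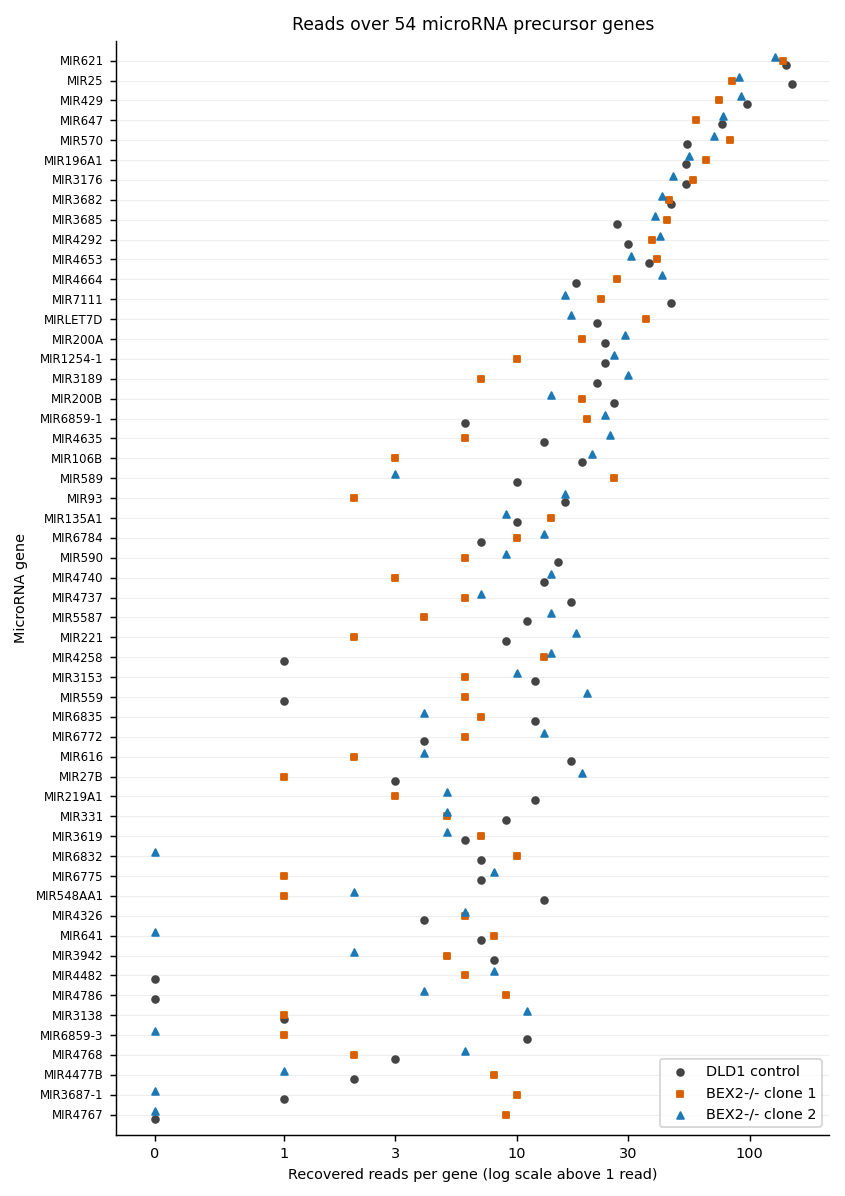
Recovered reads (x axis, log scale above 1 read) over each of the 54 microRNA genes (y axis, ordered by reads over 3 libraries) in DLD1 control cells (grey circles), clone 1 (orange squares) and clone 2 (blue triangles), 1 library each. The upper genes lie close together across libraries, and the spread between libraries widens toward the genes with few reads.

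Detection depended on the library. At 1 FPKM or more, 32 genes were found in all 3 libraries, 12 in 2 libraries and 10 in 1 library only. The last 10 passed the rule through a single library, so they had to differ between libraries. No reads were found for 3 of the 54 genes in the control, 0 of 54 in clone 1 and 5 of 54 in clone 2. A count of 0 allows up to 3 reads, which in a hairpin of 80 nt is 0.790 FPKM in the control, 1.05 FPKM in clone 1 and 0.786 FPKM in clone 2.

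MIR621 (ENSG00000207652) had the most reads over the 3 libraries. It lies at chr13:40810766-40810861 on the plus strand, 654 nt from SLC25A15 on the same strand and inside no larger gene. SLC25A15 encodes the mitochondrial ornithine transporter. MIR621 had 143 reads (31.4 FPKM) in the control, 139 (40.7 FPKM) in clone 1 and 129 (28.2 FPKM) in clone 2. SLC25A15 itself stood at 5.69, 6.33 and 5.91 FPKM in the same order, lower per length than the hairpin in every library. The MIR621 ratio was 1.30 in clone 1 (95% interval 1.02 to 1.65) and 0.897 in clone 2 (0.702 to 1.15), so the clones lay on either side of the control. Here and below, a ratio divides reads by library depth, and its exact conditional interval covers counting error only and compares libraries, not conditions.

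MIR25 (ENSG00000207547) was second, and belongs to the MIR106B cluster, a relative of the MIR17HG cluster known from proliferating cells. It lies at chr7:100093560-100093643 on the minus strand, in an intron of MCM7, which encodes a subunit of the replicative helicase. MIR25 had 152 reads (38.1 FPKM) in the control, 84 (28.1 FPKM) in clone 1 and 90 (22.5 FPKM) in clone 2. Both clones were below the control, with ratios of 0.737 (0.558 to 0.968) and 0.589 (0.449 to 0.769). MCM7 went the same way, at 107 FPKM in the control, 79.1 FPKM in clone 1 and 85.8 FPKM in clone 2, a ratio of 0.741 and 0.803. The MCM7 ratio lay within the MIR25 interval in clone 1 and just above it in clone 2.

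The other 2 hairpins of the MCM7 intron did not keep pace with MIR25. All 3 lie within 515 nt, at chr7:100093560-100094074, in the order MIR106B, MIR93, MIR25 along the transcript. MIR93 had 16 reads in the control, 2 in clone 1 and 16 in clone 2. MIR106B had 19, 3 and 21 reads in the same order. Both were low in clone 1 only and near the control in clone 2, in contrast to MIR25, which was low in both. Together they held 18.7% of the cluster reads in the control (exact binomial 95% interval 13.4 to 25.1), 5.62% in clone 1 (1.85 to 12.6) and 29.1% in clone 2 (21.4 to 37.9). The intervals of the 2 clones did not overlap, and that of clone 1 lay below that of the control. The whole cluster had a ratio of 0.635 in clone 1 (0.487 to 0.821) and 0.675 in clone 2 (0.535 to 0.851), with 187 reads in the control, 89 in clone 1 and 127 in clone 2. Although the hairpins lie in 1 intron, MIR25 held 81.3% of the cluster reads in the control, 94.4% in clone 1 and 70.9% in clone 2.

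MIR429 was the third gene by reads, with similar levels in the 3 libraries. MIR200B, MIR200A and MIR429 lie within 1984 nt, at chr1:1167104-1169087, outside larger genes. MIR429 had 97 reads (24.6 FPKM) in the control, 74 (25 FPKM) in clone 1 and 92 (23.2 FPKM) in clone 2. MIR200B had 26, 19 and 14 reads, and MIR200A had 24, 19 and 29. MIR429 held 66.0% of the cluster reads in the control (57.7 to 73.6), 66.1% in clone 1 (56.5 to 74.7) and 68.1% in clone 2 (59.6 to 75.9). The cluster ratio was 1.02 in clone 1 (0.787 to 1.31) and 0.913 in clone 2 (0.718 to 1.16), so a change of the cluster was not detectable at this depth. The other family members, MIR200C and MIR141, lie on another chromosome and did not reach a mean of 1 FPKM. In the control, clone 1 and clone 2, MIR200C stood at 0.387, 0.258 and 1.92 FPKM, and MIR141 at 0.222, 0.887 and 0 FPKM. MIR200C was past 2-fold above the control in clone 2, at a log2 ratio of FPKM + 1 of 1.08, but its reads were not recovered.

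MIR570, MIR647, MIR196A1, MIR3176, MIR3682, MIR3685 and MIR4292 completed the 10 genes with most reads. MIR570 lies in an intron of MUC20-OT1, a long noncoding RNA, and had 54 reads in the control, 82 in clone 1 and 70 in clone 2. Its ratio was 2.02 in clone 1 (1.42 to 2.91) and 1.29 in clone 2 (0.891 to 1.87), against host ratios of 1.27 and 0.986. MIR196A1, whose mature form targets HOX messages, lies in an intron of HOXB7. It had 53 reads in the control, 65 in clone 1 and 55 in clone 2, while HOXB7, a homeobox transcription factor, stood at 48.4, 44.3 and 29.5 FPKM. The hairpin had a ratio of 1.64 in clone 1 (1.12 to 2.40), where HOXB7 had 0.915, and 1.03 in clone 2 (0.695 to 1.53), where HOXB7 had 0.610.

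MIR3685 lies outside larger genes on chromosome 12 and had 27 reads in the control, 44 in clone 1 and 39 in clone 2, with ratios of 2.17 (1.32 to 3.65) and 1.44 (0.857 to 2.44). MIR4292, in an intron of RABL6, a Rab-like GTPase gene, had 30, 38 and 41 reads and was higher per depth in clone 1, at a ratio of 1.69 (1.02 to 2.82). MIR647, in an intron of UCKL1, a uridine kinase-like gene, had 76 reads in the control, 59 in clone 1 and 77 in clone 2. Its ratios of 1.04 (0.724 to 1.47) and 1.01 (0.724 to 1.40) were close to those of UCKL1, 0.992 and 0.915. MIR3176, in an intron of the calpain protease gene CAPN15, had 53, 57 and 47 reads, and MIR3682 had 46, 45 and 42. Both MIR3176 and MIR3682 had intervals that held a ratio of 1 against the control. Among the 11 genes with over 100 reads, log2 ratios of FPKM + 1 ran from -0.43 to 1.04 in clone 1 and from -0.74 to 0.48 in clone 2.

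Over all 54 genes the clones were not shifted together. The summed ratio was 1.19 in clone 1 (1.10 to 1.29) and 0.970 in clone 2 (0.896 to 1.05), so the sum was higher in clone 1 alone. The median log2 ratio of FPKM + 1 was 0.08 in clone 1 and 0.00 in clone 2, against 0.04 and -0.01 over the 11641 genes at a mean of 1 FPKM or more. The spread was wider than over all genes. The median size of the log2 ratio, sign aside, was 0.69 in clone 1 and 0.51 in clone 2, against 0.16 and 0.19 over all genes. The members had a median of 30 reads over 3 libraries, and 10 of them reached 1 FPKM in 1 library only. No set of genes matched for reads was compared, so nothing particular to microRNA genes is read from this spread.

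A difference of at least 2-fold in FPKM + 1 in the same direction in both clones was found for 8 genes, 5 higher and 3 lower. Of the 5, 4 reached 1 FPKM in the clones only and 1, MIR6859-1, on both sides, and all 3 lower genes reached it in the control only. These 7 passed the rule through the side where they were high and so had to differ, and nothing is read from the shares that follow. The 5 higher genes were 9.26% of the members, against 0.129% of all genes at a mean of 1 FPKM or more and 4.38% of the 160 other genes with under 200 nt of exons. The 3 lower genes were 5.56% of the members, against 0.112% of all genes and 2.50% of the other short genes. No member was 2-fold from the control in opposite directions, against 0.292% of all genes and 0.625% of the other short genes. When only the 28 genes with at least 30 reads were counted, 1 was higher in both clones, MIR6859-1, and 0 were lower. This read minimum was chosen after the values were seen.

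MIR4258, MIR559, MIR4482 and MIR4786 had 0 or 1 read in the control. They are members through the clones alone, so their direction was fixed by the rule. MIR4258 lies in an intron of CKS1B, which encodes a regulatory subunit of cyclin-dependent kinases, at chr1:154975693-154975783 on the plus strand. It had 1 read in the control, 13 in clone 1 and 14 in clone 2, with ratios of 17.3 (2.60 to 737) and 13.9 (2.12 to 589). CKS1B went the other way, at 54.3 FPKM in the control, 40.7 FPKM in clone 1 and 33.4 FPKM in clone 2. MIR559 lies in an intron of EPCAM, the epithelial cell adhesion molecule, at chr2:47377675-47377770 on the plus strand. It had 1, 6 and 20 reads, with ratios of 8.0 (0.971 to 368) and 19.9 (3.18 to 824). EPCAM showed no such change, at 265, 282 and 219.6 FPKM.

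MIR4482 lies outside larger genes, 467 nt from GSTO2 on chromosome 10, and had 0 reads in the control, 6 in clone 1 and 8 in clone 2. With the control set to 3 reads and clone reads as counted, the ratio was at least 2.67 (clone 1) and 2.65 (clone 2). With the counting error of the clone reads as well, the exact intervals began at 1.57 and 1.70. The direction was fixed by the rule, so no change is read from these bounds. MIR4786, in an intron of NDUFA10, a subunit of respiratory complex I, had 0, 9 and 4 reads. Its exact intervals began at 2.63 in clone 1 and at 0.656 in clone 2, so the interval of clone 2 held 1. NDUFA10 stood at 14.9, 14.1 and 11.5 FPKM, below the control in both clones.

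MIR616 and MIR548AA1 were lower in both clones, and both are members through the control alone, so this direction was fixed by the rule. MIR616 lies in an intron of DDIT3, which encodes the stress-induced factor CHOP, at chr12:57519163-57519259 on the minus strand. It had 17 reads in the control, 2 in clone 1 and 4 in clone 2, with ratios of 0.157 (0.0176 to 0.661) and 0.234 (0.0573 to 0.717). DDIT3 was slightly above the control, at 6.62, 7.79 and 7.35 FPKM. MIR548AA1 had 13, 1 and 2 reads and lies opposite to ATAD2, in an intron on the other strand, so its reads cannot be told apart from those of ATAD2 introns if strand was not kept. ATAD2 stood at 17.8, 17.5 and 17.1 FPKM.

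MIR6859-1 and MIR6859-3 have the same hairpin sequence and differed from the control in opposite directions. The table holds 4 identical copies, 3 of them in WASH pseudogenes, and a read within the hairpin cannot be assigned to 1 of them. MIR6859-1, in WASH7P on chromosome 1, had 6 reads in the control, 20 in clone 1 and 24 in clone 2. MIR6859-3, in WASH3P on chromosome 15, had 11, 1 and 0 reads, and the other copies were listed at 0. The sum of the copies was 17 reads in the control, 21 in clone 1 and 24 in clone 2, with ratios of 1.65 (0.828 to 3.32) and 1.40 (0.723 to 2.78). Both intervals of the sum held 1, so the change of each copy is uncertain. With the copies summed, 4 genes were higher and 2 lower in both clones.

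**Figure D2:**
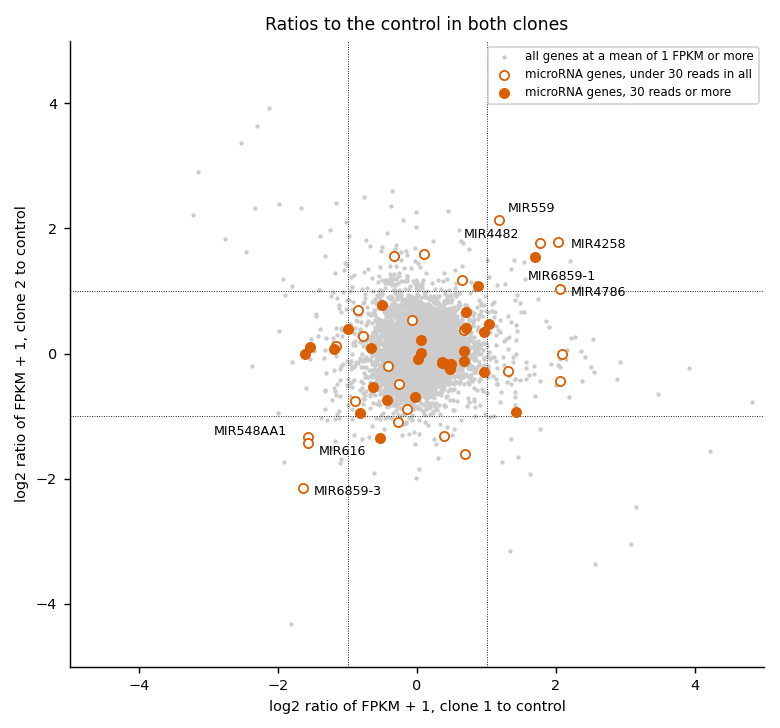
Log2 ratios of FPKM + 1 to DLD1 control cells in clone 1 (x axis) and clone 2 (y axis), for all genes at a mean of 1 FPKM or more (grey points, 1 gene lies beyond the axes) and for microRNA genes with under 30 reads over 3 libraries (open circles) or 30 or more (filled circles). Dotted lines mark 2-fold. Of the 8 named genes past the lines in both clones, only MIR6859-1 had at least 30 reads.

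The limma test of both clones against the control, fitted over 11641 genes on log2(FPKM + 1), called none of the 54 genes. The smallest adjusted p was 1, for the members and for all genes. The fit had 1 residual degree of freedom and takes the control to vary as the clones do. Counting error alone was exceeded more often. In clone 1 the counting interval lay above a ratio of 1 for 15 members, 27.8%, and below it for 6, 11.1%, against 37.8% and 26.4% of the 10555 genes with whole reads. In clone 2 it lay above for 7 and below for 7, 13.0% each, against 33.7% and 36.0% of all such genes. In both clones these include members through the clones alone, such as MIR4258 and MIR4482, and through the control alone, such as MIR616 and MIR548AA1. An interval also narrows with more reads, so nothing is read from the shares of intervals. By limma at an unadjusted p under 0.05, 7 members were higher and 5 lower, against 0.653% and 0.455% of all genes. Of the 7, 4 reached 1 FPKM in the clones only, and of the 5, 4 in the control only, so nothing is read from these shares. MIR6859-1 had a limma log2 difference of 1.62 and MIR616 had -1.45, both against a single control library. MIR616 is a member through the control alone, so its direction was fixed by the rule. MIR6859-1 is one of the identical copies described above, whose summed ratios had intervals that held 1. Neither difference is therefore read as a change.

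The clones were about as often 2-fold apart from each other as either was from the control. At least 2-fold lay between clone 1 and clone 2 for 18 genes, 33.3% of the members, against 4.24% of all genes and 21.9% of the other short genes. MIR4767, MIR3687-1 and MIR4477B reached 1 FPKM in clone 1 only, and MIR27B and MIR3138 in clone 2 only. These had to differ between the clones, so nothing is read from the shares between the clones. Of these 18, 10 were higher in clone 2, against 2.54% of all genes and 13.8% of the other short genes, and 8 were lower, against 1.70% and 8.12%. With at least 30 reads, 7 of 28 genes remained this far apart: MIR3189, MIRLET7D, MIR4635, MIR106B, MIR4740, MIR589 and MIR93. No share of other genes is given at this read minimum. In clone 1, 10 genes (18.5%) were 2-fold higher than the control, against 1.11% of all genes and 11.2% of the other short genes. Another 7 (13.0%) were lower, against 0.807% and 7.50%. In clone 2, 9 (16.7%) were higher, against 1.37% and 13.1%, and 7 (13.0%) were lower, against 0.567% and 7.50%. Both clones' counts include MIR4258, MIR559, MIR4482 and MIR4786, members through the clones alone, and MIR616, MIR6859-3 and MIR548AA1, members through the control alone. These had to differ, so nothing is read from the shares against the control.

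Of the 7 genes with at least 30 reads that were 2-fold apart between the clones, MIR589 had the ratio farthest from 1. It had 10 reads in the control, 26 in clone 1 and 3 in clone 2. It lies in an intron of FBXL18, an F-box gene, which stood at 1.18, 1.35 and 1.63 FPKM. The ratio of clone 2 to clone 1 was 0.0861 for the hairpin (0.0167 to 0.281) and 1.21 for the host. MIR3189 had 22, 7 and 30 reads and lies in an intron of GDF15, a stress-induced cytokine at 28.6, 18.7 and 37.2 FPKM. Hairpin and host were both lowest in clone 1 and highest in clone 2, with a clone 2 to clone 1 ratio of 3.20 (1.38 to 8.62) for MIR3189 and 1.99 for GDF15.

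MIRLET7D was the single member of the let-7 group, which is known for restraining growth and whose precursors LIN28 proteins block. It had 22 reads in the control, 36 in clone 1 and 17 in clone 2, a clone 1 ratio of 2.18 (1.25 to 3.89). Its host AL158152.2, a long noncoding RNA, went the other way, at 2.78, 1.32 and 3.03 FPKM. MIRLET7A1 and MIRLET7F1 lie in the same host and had at most 2 and 3 reads in any library.

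MIR221 and MIR222, which repress the cell cycle inhibitor CDKN1B, had their fewest reads in clone 1 and their most in clone 2, as did the level of their host. MIR221 had 9 reads in the control, 2 in clone 1 and 18 in clone 2, and MIR222, below the rule's threshold, had 3, 1 and 8. The ratio of their sum to the control was 0.333 in clone 1 (0.0604 to 1.24), an interval that held 1, and 2.15 in clone 2 (1.05 to 4.69). The ratio of clone 2 to clone 1 was 6.46 (1.98 to 33.4), and MIR222HG, the host transcript, stood at 2.72, 1.82 and 7.44 FPKM. MIR27B and MIR23B lie in an intron of C9orf3, and MIR27B is a member through clone 2 alone, so its high value there was fixed by the rule. MIR27B had 3, 1 and 19 reads and MIR23B, not a member, had 2, 1 and 5. Their sum in clone 2 was 4.77 times that of the control (1.79 to 16.0). Of its 24 reads in clone 2, 19 were from MIR27B, so nothing is read from this ratio. C9orf3 stood at 1.34, 1.34 and 1.23 FPKM.

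Other well known microRNA genes were low or listed at 0 in these libraries of long RNA. Of the let-7 genes, 9 of 11 were in the table and 1 was a member. MIR31, MIR34B, MIR34C, MIR145, MIR194-1 and MIR215 were listed at 0 in all 3 libraries. MIR21, MIR143 and the 6 hairpins of the MIR17HG cluster were not analysed here. At the threshold, MIR3942 and MIR4767 lay just inside, at means of 1.073 and 1.081 FPKM. MIR23A and MIR6753 lay just outside, at 0.9894 and 0.9841 FPKM.

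All members were intronic or outside larger genes. Of the 54, 44 lay in introns, 41 of them on the strand of their host in 38 different genes, and 10 lay outside, with 0 in exons. Of 865 microRNA genes in same-strand introns, 4.74% were members, and 15.2% of the 158 whose host had at least 10 FPKM. Outside larger genes 2.73% of 366 were members, and in introns on the other strand only, 2.16% of 139. In exons, 0 of 7 microRNA genes on the same strand and 0 of 43 on the other strand were members. Exonic genes were few, and only 54 of all 1448 microRNA genes were members, so nothing is read from the lack of exonic members. The exonic hairpins on the other strand were all listed at 0, although 18 lay in a gene at 1 FPKM or more. GC content, which the rule did not use, had a median of 58.1% in members and 50% in the other 1394 microRNA genes. Within same-strand introns of hosts at 1 FPKM or more, it was 60% in 37 members and 53.3% in 437 others.

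A set of 8 members lay directly next to an exon of the host: MIR6859-1, MIR6859-3, MIR6772, MIR6775, MIR6784, MIR6832, MIR6835 and MIR7111. In all 8 the exon began directly after the hairpin, so the hairpin ended where the intron ended. Most introns end in AG, and all 8 hairpins did, against 1 of the 46 other members. This follows from where the 8 end, so nothing is read from the contrast. Hairpins of 3 of them are shown, with mature arms in capitals, because the end of the 3p arm is the end of the intron, the arrangement of a mirtron's 3′ side.
MIR7111 in RPL10A: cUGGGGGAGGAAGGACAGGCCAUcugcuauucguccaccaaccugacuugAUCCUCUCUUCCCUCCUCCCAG
MIR6775 in SLC7A5: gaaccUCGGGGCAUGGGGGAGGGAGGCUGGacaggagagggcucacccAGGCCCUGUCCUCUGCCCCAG
MIR6784 in PLCD3: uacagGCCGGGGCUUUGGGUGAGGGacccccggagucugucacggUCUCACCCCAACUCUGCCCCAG

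Among these 8, MIR7111 and MIR6835 lie in the most abundant hosts. MIR7111, in an intron of RPL10A, a ribosomal protein gene, had 46 reads in the control, 23 in clone 1 and 16 in clone 2. RPL10A stood at 487, 421 and 489 FPKM, so the hairpin was lower in clone 2, at a ratio of 0.346 (0.183 to 0.622), where the host ratio was 1.00. MIR6835, in an intron of HMGA1, a chromatin protein gene, had 12, 7 and 4 reads, while HMGA1 stood at 431, 288 and 447 FPKM. MIR6775, in an intron of the amino acid transporter gene SLC7A5, had 7, 1 and 8 reads. Per length, the mean level of MIR7111 was 1.94% of its host and that of MIR6835 was 0.714%.

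**Figure D3:**
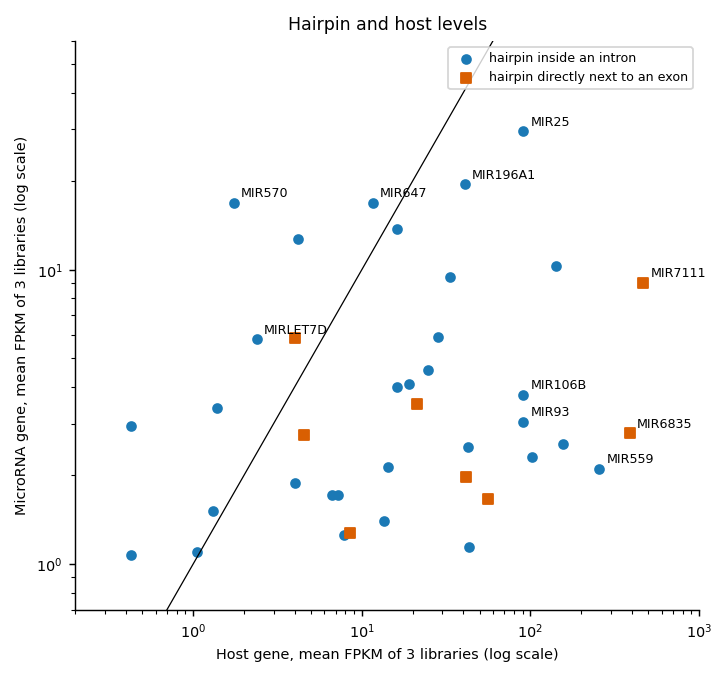
Mean FPKM over 3 libraries of each microRNA gene (y axis, log scale) against that of its same-strand host (x axis, log scale), for 39 members with a host at 0.1 FPKM or more. Circles lie inside an intron, squares directly next to an exon, and the line marks equal levels. MIR570 and MIR647 lie above their hosts, and MIR7111 and MIR6835 lie far below theirs.

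Hairpin and host levels were compared per length. Among 39 members with a same-strand host of at least 0.1 FPKM, the hairpin per length had a median of 21.5% of the host, from 0.714% to 965%. It was above the host for 10 and less than 10% of it for 12. Across these 39 genes, Spearman's rho between the mean hairpin and host levels was 0.21, a description over genes that share 3 libraries and were chosen by the hairpin level itself. Without that choice, 19.4% of all microRNA genes in same-strand introns were above 0 in any library, 30.9% where the host had at least 1 FPKM and 41.1% where it had at least 10 FPKM.

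The host ratio was set beside the hairpin ratio in each comparison. It lay inside the counting interval of the hairpin for 27 of 39 members in clone 1 against control, 24 of 39 in clone 2 against control and 26 of 39 in clone 2 against clone 1. In all 3 comparisons it lay inside for 16 members. A wide interval holds many host ratios, so this count describes depth as much as likeness. In clone 1, 8 hairpins lay above the host ratio and 4 below it, among them MIR106B, MIR93 and MIR616. In clone 2, 8 lay above and 7 below, among them MIR25 and MIR7111. MIR196A1, MIR6859-1 and MIR4258 lay above, and MIR616 and MIR6859-3 below, in both clones. Of those above, MIR4258 and MIR4786 in clone 1, and MIR4258, MIR559, MIR27B and MIR3138 in clone 2, are members through the clones alone. Of those below, MIR616 and MIR6859-3 are members through the control alone. Their directions against the control were therefore fixed by the rule. Nothing is read from their distance to the host or from the counts above and below it. MIR6859-1 and MIR6859-3 are identical copies whose reads cannot be assigned.

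**Figure D4:**
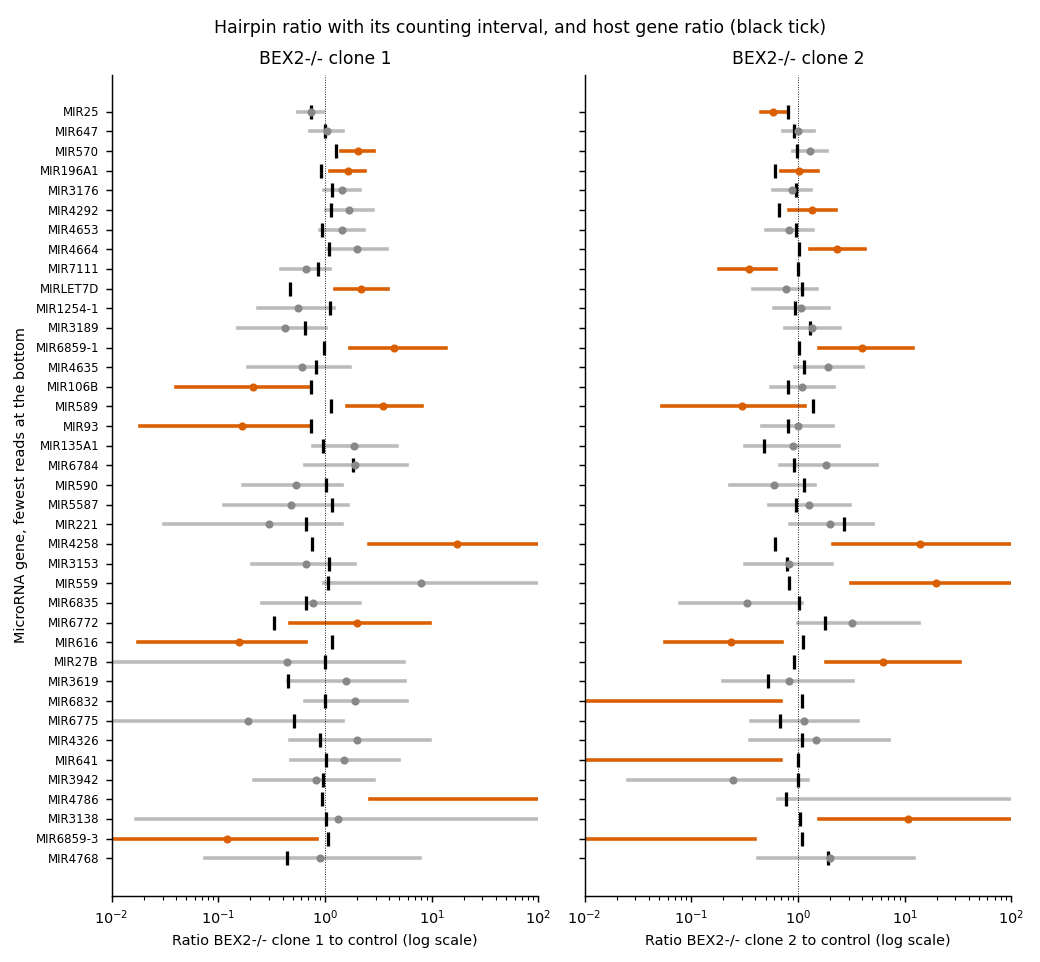
Ratio of each hairpin to DLD1 control cells (points) with its exact 95% counting interval (bars, cut at the axis ends), and the ratio of its host gene (black ticks), on a log scale, for 39 members in clone 1 (left) and clone 2 (right). Orange bars do not hold the host ratio, 12 in clone 1 and 15 in clone 2. They include members through the clones alone or the control alone, so nothing is read from these counts. Hairpins with 0 reads in the control or in the clone have no point.

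Genes that make or use microRNAs were examined as a list. Of 24 genes of processing and effector steps, 22 were at a mean of 1 FPKM or more, and 0 of the 24 were 2-fold from the control in either clone, a count near the share of all genes, of which 1.11% were higher and 0.807% lower in clone 1, and 1.37% and 0.567% in clone 2. LIN28A and LIN28B, which block let-7 processing, were listed at 0 in all libraries. DROSHA stood at 9.90 FPKM in the control, 13.0 FPKM in clone 1 and 9.48 FPKM in clone 2. DICER1 stood at 3.81, 4.90 and 4.45 FPKM, and AGO2, the slicing Argonaute, at 4.35, 4.50 and 5.88 FPKM. The median log2 ratio of the 24 genes was 0.04 in clone 1 and 0.06 in clone 2, close to the 0.04 and -0.01 of all genes.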

How the data were processed

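The authors extracted total RNA with Trizol, made TruSeq libraries, sequenced them on an Illumina instrument and deposited 1 table of FPKM values per gene, fragments divided by exon length and library size, for 1 control library and 2 clones. Per the labels, the submitters' processing notes list Trim Galore 0.3.7, STAR 2.5, Cufflinks 2.2.1, DESeq 1.22.1 and hg19, without their roles, and do not state whether strand was used. Symbols, gene types and positions were taken from GENCODE release 29 (GRCh38) by Ensembl identifier, for 56996 of 60504 rows, so coordinates are of that annotation.

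Hosts were larger genes overlapping a hairpin on the same strand, exonic before intronic, and protein-coding before other. Depth was the library size at which FPKM multiplied by exon length was whole, within 0.02, for most low values. It was whole for 98.7% to 98.8% of low values of single-transcript genes. A count of 0 was taken to allow 3 reads. Intervals are exact at 95%, from Poisson, binomial (Clopper-Pearson) or conditional binomial counts, and cover counting error only, since reads carry no molecular identifiers.

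Ratios used log2(FPKM + 1), with the 11641 genes at a mean of 1 FPKM or more as background. The limma test (limma 3.58.1, R 4.3.3, trend, Benjamini-Hochberg over all these genes) compared 1 control library with 2 clones. P-values measure only the spread between these clones. Named were the 10 members with most reads, those 2-fold from the control in both clones, those at the threshold, well known microRNA groups, hosts and 24 processing genes, and any other gene was chosen after its values were seen. The members and lists were chosen with earlier results of these data known. Alternatives changed the pseudocount, scaling, filter, threshold and host choice, or left out a clone. Scripts were tested on simulated data and used Python 3.11.15 with matplotlib 3.10.9, scipy 1.17.1, pandas 2.3.3 and numpy 2.4.6.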

Additional observations from a re-analysis of the deposited data

How the results depend on the processing

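The count of members 2-fold lower in both clones, 3 as reported, became 5 with a pseudocount of 0.1 FPKM, 5 without a pseudocount and a 3-read floor, 5 at 1.5-fold, 8 with no filter, 0 at a mean of at least 5 FPKM and 0 with at least 30 reads, a minimum chosen after the data were seen. The count higher in both clones, 5 as reported, became 8 at 1.5-fold, 1 at a mean of at least 5 FPKM and 1 with at least 30 reads. On the TPM scale 6 were higher and 4 lower, and with the 3-read floor 6 were higher. Members in opposite directions, 0 as reported, became 2 with the pseudocount of 0.1 FPKM, 2 on the TPM scale, 1 with the 3-read floor and 3 at 1.5-fold. Members 2-fold apart between the clones, 18 as reported, became 30 at 1.5-fold, 46 with no filter, 7 with at least 30 reads and 2 at a mean of at least 5 FPKM. The filters test fewer or more genes by construction, and the cause of the other shifts was not tested. The median log2 ratio of clone 1, 0.08 as reported, was 0.19 with the pseudocount of 0.1 FPKM, 0.19 on the TPM scale, 0.49 at a mean of at least 5 FPKM, 0.00 with no filter and 0.40 with the 3-read floor. Without clone 1, 9 members were higher and 7 lower, and without clone 2, 10 were higher and 7 lower, since a single clone then decided the count. Of 572 recomputed ratios of single members, 475 moved by less than 1 SD between the clones, 97 moved by more, and 0 past 2-fold changed sign. The 475 include the settings with no filter and with a mean of at least 5 FPKM. Those settings leave each member's values as they were, so their ratios could not move. The limma fit called 0 members in the settings run, which with 1 control library says nothing about stability. No paired analysis was possible because the control has 1 library. The restriction to exonic hairpins was not run, as no member was exonic. Few reads limit what can be seen: the median member had 30 reads over 3 libraries, and 26 of 54 had under 30.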
